A study of Canis lupus familiaris with 18 samples.

Results

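The comparison described here is that of the line carrying bPAC with its parental line when neither was illuminated. Its members are the 3 dark libraries of each line, 6 of the 18 libraries of the series, chosen by their source labels. MDCKI is an epithelial cell line from dog kidney that forms polarised sheets with tight junctions. bPAC, an adenylyl cyclase of bacterial origin, produces cyclic AMP when struck by blue light. The parental dark group is MDCKI, and the bPAC dark group is MDCKI + bPAC. All 6 were kept in multiwell plates in medium with 0.5% serum and without phenol red. They received no dose of light in the 2 h illumination step, 16 h after plating, and differ by label only in the line. The low and high light groups, with 3 and 2 parental and 4 and 3 bPAC libraries, serve below as separate libraries in which the line difference was measured again.

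Cyclic AMP binds the regulatory subunits of protein kinase A and frees its catalytic subunits. These enter the nucleus and phosphorylate CREB, a transcription factor that switches on genes with a cyclic AMP response element. In kidney epithelium the pathway carries the signal of vasopressin, which controls water and salt transport. A comparison of unlit cells holds every difference between the lines other than light. Its sources may be the cyclase at rest, the making of the line, or any separate culture or handling of the lines. These cannot be told apart with the groups at hand. Whether the bPAC line is a single clone or a pool, and which promoter drives bPAC, is not given in the sources used here. bPAC has no dog gene ID, so its own transcript was not analysed here and the labels were not checked against it. In bulk RNA, fewer cells with a transcript and less of it per cell cannot be told apart either.

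The files give dog Ensembl gene IDs without symbols, and the reference table held none of them (0 of 32220). Genes are therefore named by ID only, and the gene lists for cyclic AMP signalling, CREB targets, kidney epithelium and other cell types were not analysed here. For the same reason the labelled cell type was not checked against its markers, and no sequence is shown.

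The 6 dark libraries held 2803728 to 9610144 reads assigned to genes and 11152 to 12594 detected genes. Reads outside genes made up 27.5% to 28.2% of each library, and reads aligned to more than 1 place 38.5% to 40.4%. The share of gene reads taken by the 10 most abundant genes was 14.2% to 15.2% in bPAC and 13.3% to 13.9% in parental libraries. An exact two-sided permutation test of that share gave p = 0.1, the smallest that 3 against 3 libraries allow (adjusted p = 0.467 over 7 library measures). Parental dark replicate 1, the deepest library, stood between the lines. On the first principal component of log2 CPM (CPM is the gene's read count relative to library size, here scaled by TMM) over the dark libraries, which held 53.8% of their variance, it scored -3.48. The other parental libraries scored -33.3 and -51.9, and the bPAC libraries 23.04 to 38.9. Its root mean square log2 difference was 0.598 to parental replicate 2, 0.749 to parental replicate 3 and 0.620 to bPAC replicate 1. With all 6 libraries thinned to 2803728 reads it scored -3.39, so its position was the same at equal depth. Several counts below are therefore also given without it.

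In the dark 557 of 8530 tested genes (6.53%) differed between the lines by edgeR's quasi-likelihood test at an adjusted p under 0.05. Of these, 308 stood higher in the bPAC line (3.61% of the tested genes) and 249 stood lower (2.92%). The higher genes differed by a median log2 fold change of 1.35 and the lower genes by -1.04, against a median absolute log2 fold change of 0.36 over all tested genes. At least a 4-fold difference was reached by 83 of the 308 higher genes and 17 of the 249 lower genes, beside 1.74% of all tested genes. At least an 8-fold difference was reached by 36 of the 308 and 2 of the 249, beside 0.481% of all tested genes. The 3 libraries of one line did not overlap with those of the other for 548 of the 557 genes, where 27.6% of all tested genes had no overlap. The same libraries chose the genes, so this separation was nearly fixed beforehand and adds nothing to the calls.

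**Figure D1:**
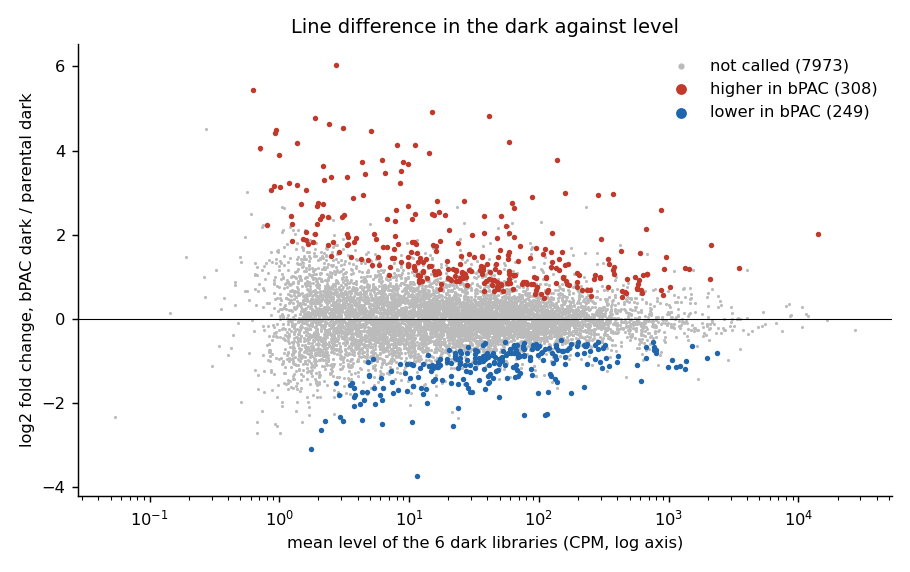
Each point is 1 of the 8530 tested genes. The horizontal axis is its mean level over the 6 dark libraries in CPM on a log axis, and the vertical axis the fitted log2 fold change of bPAC over parental cells. Red and blue points are the 308 higher and 249 lower genes, and at low levels the called points lie far from 0 while at high levels they begin closer to it.

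Fewer genes were called where fewer reads were counted. With the tested genes divided into 4 equal bands of mean level, the lowest band, from 0.498 to 4.90 CPM, held 72 called genes (3.38%), and their median absolute log2 fold change was 2.41. In the highest band, from 67.9 CPM up, 194 genes (9.10%) were called at a median of 0.95. The called genes were 55 higher and 17 lower in the lowest band, and 104 and 90 in the highest. How far level accounts for the larger fold changes of the higher genes was not tested. The median standard error of a log2 fold change was 0.54 in the lowest and 0.21 in the highest band. Small differences of rare transcripts were therefore harder to call, and how far depth accounts for this was not tested. In simulated counts with these library sizes the test recovered 14% of 2-fold and 73% of 4-fold changes between the dark groups.

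Near silence in one line was found in the parental cells for 12 of the 308 higher genes, which had at most 3 reads in all 3 parental dark libraries together. Their mean level in bPAC dark cells ran from 1.24 to 5.38 CPM, so all were rare transcripts. With so few reads there, they could pass the filter on low counts only through other libraries. None of the 249 lower genes had so few reads in the bPAC dark libraries. Over all tested genes, 21 had at most 3 reads in the parental and 13 in the bPAC dark libraries.

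Leaving out parental dark replicate 1 gave 736 genes, 385 higher and 351 lower, among them 457 of the 557. Dropping parental dark replicate 2 left 238 genes, dropping parental dark replicate 3 left 224, and dropping bPAC dark replicate 2 left 235. Of the 557 genes, 42.5%, 39.9% and 41.8% were still called in these last 3 fits. All 557 kept their sign in each of the 4 fits. The fits reuse dark libraries that chose the genes, so a kept sign was nearly fixed beforehand. Dropping bPAC dark replicate 1 left 469 genes and dropping bPAC dark replicate 3 left 405. On leaving out 1 dark library, 64 to 351 lower genes were called against 150 to 385 higher genes. The lower genes did not always vary more, since without bPAC dark replicate 1 there were 248 lower and 221 higher genes. The labels do not say whether the libraries of a group are separate cultures. The p-values therefore speak only of the variation among these libraries, and part of it may be technical.

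The 308 higher genes together took 79135 to 80844 CPM in the bPAC dark libraries and 27490 to 36566 CPM in the parental dark libraries. The 249 lower genes took 23163 to 26410 CPM in bPAC and 43058 to 51310 CPM in parental cells. These dark values restate the choice of the genes. The illuminated libraries did not enter the dark fold changes, but they shared the filter and the estimate of the spread behind the dark calls. In them the 308 genes took 102135 to 149412 CPM in the 7 bPAC libraries and 36436 to 47326 CPM in the 5 parental libraries. The 249 genes took 27492 to 34187 CPM in bPAC and 41692 to 46881 CPM in parental libraries under light. For both lists the illuminated libraries of the lines did not overlap.

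**Figure D2:**
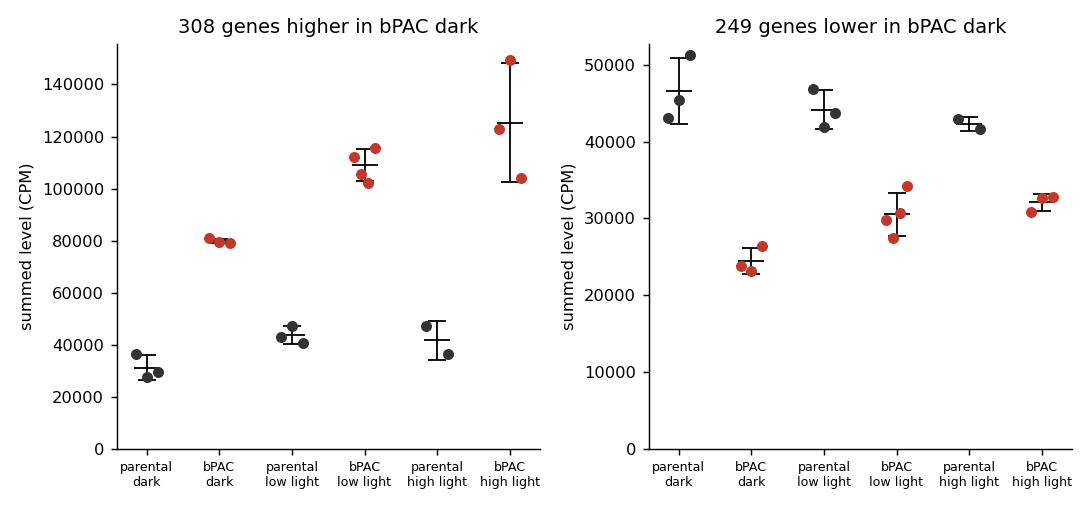
The vertical axes give the summed level in CPM of the 308 genes called higher (left) and the 249 called lower (right) in bPAC dark cells, with libraries as points (red bPAC, dark grey parental) and bars for the group mean and SD. The dark libraries chose the genes, and in both panels the illuminated bPAC libraries lie on the same side of the parental ones as in the dark.

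A single gene, ENSCAFG00000014345, made up 28.3% of the summed level of the higher genes in bPAC dark cells, and it was singled out after its values were seen. It stood at 24236, 20714 and 22923 CPM in the bPAC dark libraries and at 7764, 4040 and 5021 CPM in the parental dark libraries. All bPAC libraries were above all parental ones, with a 4.03-fold difference (log2 fold change 2.01, SE 0.24; edgeR adjusted p = 3.43e-05). At low light it stood at 42054 to 53483 CPM in bPAC and 13403 to 16588 CPM in parental cells, a 3.27-fold difference (edgeR adjusted p = 9.30e-05). At high light the difference was 4.42-fold (edgeR adjusted p = 7.71e-05). The line difference passed the threshold at each dose. Low light against dark gave 2.10-fold in bPAC (edgeR adjusted p = 0.00206) and 2.59-fold in parental cells (edgeR adjusted p = 0.00150). High light against dark gave 2.48-fold in bPAC (edgeR adjusted p = 0.000949) and 2.26-fold in parental cells, which missed the threshold (edgeR adjusted p = 0.0606). Without this gene the higher genes took 60081 to 75096 CPM in illuminated bPAC and 26083 to 32016 CPM in illuminated parental libraries.

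Whether the dark difference recurred was asked with the contrasts of the lines at low and at high light, which compare other libraries than the dark contrast but share its filter and its estimate of the spread. Over all 8530 genes the dark log2 fold changes correlated with those at low light at r = 0.57 (Spearman's rho 0.45) and with those at high light at r = 0.42 (rho 0.33). These are descriptions across genes, which are not independent replicates. Of the 557 dark genes, 546 had the same sign at low light (98.0%) and 512 at high light (91.9%), beside 65.8% and 60.8% of all tested genes. At low light 273 of the 557 were called in the same direction (49.0%), where 7% of all tested genes were called in either direction. At high light 257 were called in the same direction (46.1%), where 12.2% of all tested genes were called. The dark genes were more abundant, at a median of 51.2 CPM in the higher line beside 21.4 CPM over all tested genes. The background shares here and below are not matched for level. The overlap made up 45.7% of the 597 genes called at low light and 24.7% of the 1041 called at high light. With each contrast fitted on its own groups alone, so that the spread too came from separate libraries, 448 genes were called in the dark, 381 of them among the 557. Of these 448, 182 were called the same way at low light (40.6%, background 4.23%) and 174 at high light (38.8%, background 8.59%). The shares depended on single dark libraries. Without parental dark replicate 1 they were 31.5% of 736 dark genes at low and 33.3% at high light. Without parental dark replicate 2 they were 70.2% and 60.9% of 238 genes, and without replicate 3, 77.7% and 66.1% of 224. No background share was taken for these 3 fits.

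Genes higher in bPAC and genes lower in bPAC recurred to different extents, and this difference was not tested. Among the 308 higher genes, 195 were called higher at low light (63.3%, background 4.17%) and 182 at high light (59.1%, background 6.58%). Among the 249 lower genes, 78 were called lower at low light (31.3%, background 2.83%) and 75 at high light (30.1%, background 5.63%). The share was larger for the higher genes in every band of dark fold change. Below 2-fold it was 55.2% of 87 higher and 27.2% of 114 lower genes at low light. From 2-fold to 4-fold it was 59.4% of 138 and 33.1% of 118, and from 4-fold up 78.3% of 83 and 47.1% of 17. It was also larger for the higher genes, at both doses, under all 14 alternative settings. The closest shares came without a filter on low counts. They were 44.7% of higher and 36.4% of lower genes at low light, and 40.6% and 35.2% at high light. Without parental dark replicate 1, they were 43.1% and 18.8% at low light and 42.1% and 23.6% at high light. Without parental dark replicate 3, they were 83.1% and 65.7% at low light and 74.7% and 47.1% at high light. The share of lower genes that recurred thus depended strongly on single dark libraries.

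The size of the line difference was closer to the dark value for the higher genes. Their median log2 fold change was 1.35 in the dark, 1.13 at low light and 1.18 at high light. For the lower genes the medians were -1.04, -0.55 and -0.54. Over all tested genes the medians lay between -0.03 and -0.01 in the 3 contrasts. The dark fold changes entered the choice of these genes, while the illuminated libraries entered it only through the shared filter and spread.

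Called in the same direction in the dark and at both doses were 208 genes, 161 higher (background 2.81% called higher at both doses) and 47 lower (background 1.22%). Another 65 were called at low light and 49 at high light alone. The remaining 235 were called in the dark direction at neither dose, and 189 of them had the dark sign at both. Their median log2 difference in the direction of the dark was 1.08 in the dark, 0.41 at low light and 0.38 at high light. A missed threshold under light does not show that the line difference had gone. A change of the difference itself was called for 5 of these 235 genes, beside 0.0352% of all tested genes at low and 0.504% at high light. At an unadjusted p under 0.05 it was found for 17.4% of the 557 genes at low and 23.5% at high light, beside 5.94% and 13.9% of all tested genes. That test shares the dark libraries, so neither a change nor its absence is settled for most of these genes.

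**Figure D3:**
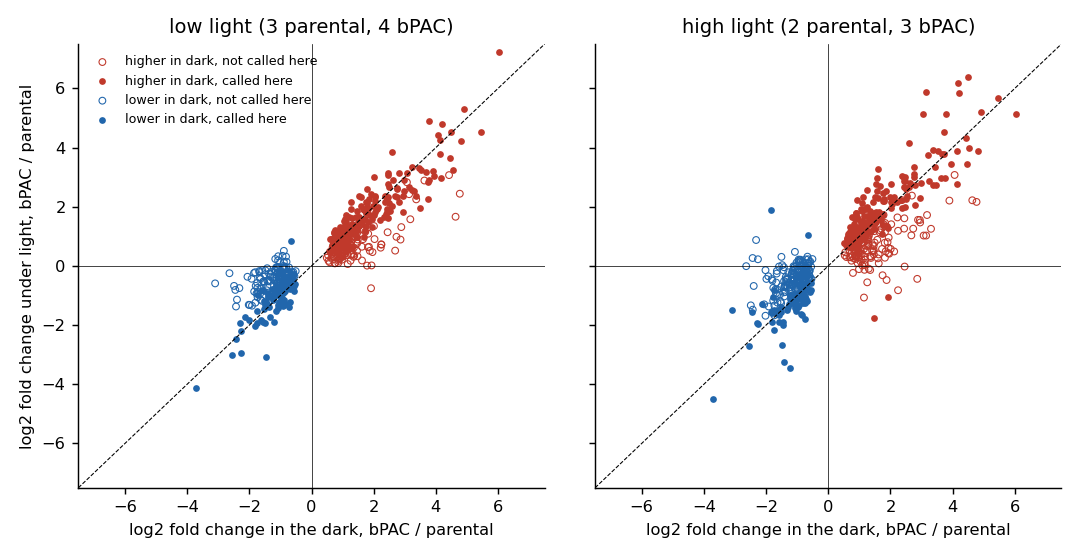
Each point is 1 of the 557 genes called in the dark, with its log2 fold change of bPAC over parental cells in the dark on the horizontal axis and the same at low light (left) or high light (right) on the vertical axis. Filled points were called under light too, the dashed line marks equal values, and 546 genes at low and 512 at high light lie on the dark side of 0.

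The genes with the largest difference among those called in the same direction in the dark and at both doses, at 20 CPM or more in the higher line and with no overlap of the dark libraries (113 higher and 45 lower genes), were these. ENSCAFG00000017018 had 24.7, 20.7 and 42.2 CPM in the bPAC dark libraries and 1.31, 0.536 and 0.678 CPM in the parental dark libraries. The rule required no overlap in the dark and the same call at both doses, so neither is a further result for the genes it chose. The parental values of this gene rest on 13, 2 and 3 reads. Its log2 fold change was 4.91 (SE 0.45; edgeR adjusted p = 1.46e-06) in the dark, 5.30 (SE 0.43) at low and 5.21 (SE 0.53) at high light. The level under light was 30.05 to 77.8 CPM in the 7 bPAC libraries and 0.883 to 2.38 CPM in the 5 parental libraries.

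ENSCAFG00000015333 had 112, 95.7 and 32.3 CPM in the bPAC dark libraries and 5.43, 0.805 and 0.904 CPM in the parental ones. Both groups were uneven, with bPAC replicate 3 low and parental replicate 1 high. Its log2 fold change was 4.81 (SE 0.72; edgeR adjusted p = 0.000973) and became 6.49 without parental dark replicate 1. Under light the log2 fold change was 4.21 (SE 0.73) at the low and 3.89 (SE 0.92) at the high dose, with bPAC levels of 13.7 to 73.5 CPM at low and 24.8 to 31.9 CPM at high light.

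Of the lower genes, ENSCAFG00000018999 was the more even. It had 5.32, 7.81 and 6.29 CPM in the bPAC dark libraries and 40.7, 35.1 and 36.4 CPM in the parental ones, and no parental library came near a bPAC library. The log2 fold change was -2.54 (SE 0.24; edgeR adjusted p = 1.64e-06) in the dark, -3.03 (SE 0.22) at low and -2.71 (SE 0.26) at high light. Across all doses it stayed at 4.09 to 7.81 CPM in bPAC and 30.9 to 54.0 CPM in parental cells. High against low light gave no call in bPAC cells, at a log2 fold change of -0.18 (SE 0.25; edgeR adjusted p = 0.687).

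ENSCAFG00000012619 had 0.851, 2.72 and 1.57 CPM in the bPAC dark libraries and 37.02, 22.8 and 4.29 CPM in the parental ones. Parental replicate 3 lay close to the highest bPAC library, so the size of this difference is poorly fixed. The log2 fold change was -3.72 (SE 0.78; edgeR adjusted p = 0.00936), -3.03 without parental dark replicate 1, and missed the threshold when the dark groups were fitted alone (edgeR adjusted p = 0.0568). At low light 4 bPAC libraries had 0 to 0.634 CPM and 3 parental libraries 3.82 to 12.3 CPM.

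A change of the line difference with light was tested as an interaction. Of the 557 dark genes, 2 passed it at low light (background 0.0352%) and 6 at high light (background 0.504%), by edgeR at an adjusted p under 0.05, and the 2 are among the 6. By the sign of the change in the log2 ratio of bPAC to parental cells, whatever its dark sign, 1 rose (background 0.0234%) and 1 fell (background 0.0117%) at low light. At high light 2 rose (background 0.106%) and 4 fell (background 0.399%), and 1 of these 4 was already lower in bPAC in the dark. The interaction shares the dark libraries that chose these genes, so these counts are not independent of that choice. The number at high light was 32 without parental dark replicate 1, 3 without parental replicate 2 or 3 and 1 without bPAC replicate 2. At low light it was 1 when any dark library other than parental replicate 1 was left out. No background share was taken for these fits.

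ENSCAFG00000006638 had the smallest adjusted p among dark genes whose log2 ratio of bPAC to parental cells fell. It had 70.2, 75.4 and 82.1 CPM in the bPAC dark libraries and 28.6, 15.6 and 15.4 CPM in the parental ones, a log2 fold change of 1.91 (SE 0.26; edgeR adjusted p = 0.000125). At high light the line difference was in the opposite direction, at -1.04 (edgeR adjusted p = 0.0230), and at low light it was -0.76 and missed the threshold (edgeR adjusted p = 0.0661). The bPAC libraries had 10.1 to 19.4 CPM at low and 14.4 to 18.6 CPM at high light, and parental libraries 22.9 to 25.4 and 28.2 to 37.7 CPM. The line difference changed by -2.67 (SE 0.35; edgeR adjusted p = 0.00296) at low and by -2.96 (SE 0.38; edgeR adjusted p = 0.00126) at high light. In bPAC cells low light lowered the gene 5.32-fold against dark (edgeR adjusted p = 1.34e-05), and high against low light gave no call (edgeR adjusted p = 0.724).

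ENSCAFG00000016285 had the smallest adjusted p among those whose ratio rose. It had 2.34, 0.679 and 1.57 CPM in the bPAC dark libraries, from 11, 2 and 6 reads, and 4.83, 7.51 and 5.65 CPM in the parental ones. Its dark log2 fold change was -1.85 (SE 0.41; edgeR adjusted p = 0.00936), which missed the threshold without bPAC dark replicate 2 (edgeR adjusted p = 0.0600). At low light the lines overlapped, with 4.01 to 6.91 CPM in bPAC and 5.16 to 9.12 CPM in parental cells. At high light bPAC stood at 8.99 to 13.2 CPM and parental cells at 2.28 and 3.26 CPM. The line difference changed by 3.74 (SE 0.59; edgeR adjusted p = 0.00429) at high light.

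The other 4 genes with a changed difference, named because they are few, were ENSCAFG00000001225, ENSCAFG00000030217, ENSCAFG00000018583 and ENSCAFG00000005749. ENSCAFG00000001225 had a line difference of 1.48 in the dark, 0.33 at low and -1.74 at high light on the log2 scale. For ENSCAFG00000030217 the values were 1.25, 0.17 and -0.56. ENSCAFG00000018583, called at both doses, had -0.66, 0.85 and 1.03. For ENSCAFG00000005749 the difference grew in the dark direction, from -1.22 to -1.91 and -3.45.

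**Figure D4:**
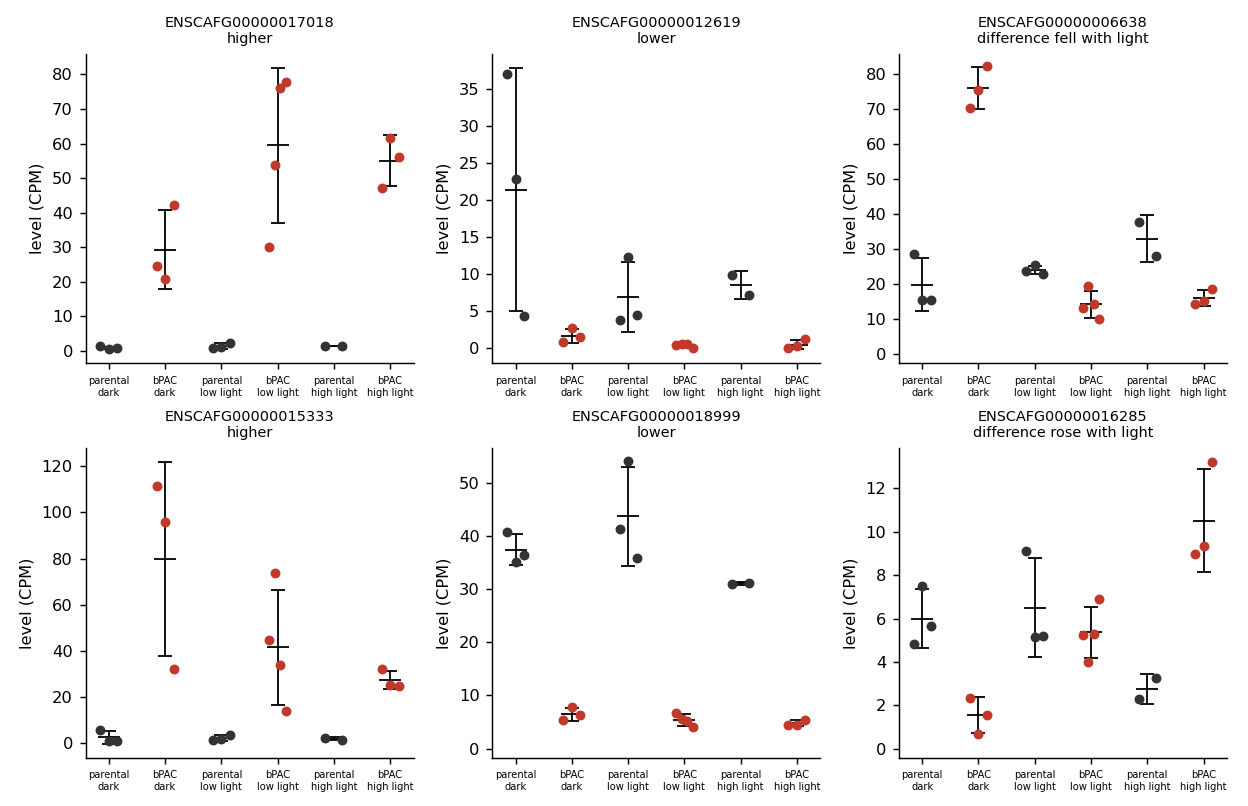
Levels in CPM of the 6 genes named by rule in all 18 libraries, with libraries as points (red bPAC, dark grey parental) and bars for the group mean and SD. The left and middle columns show genes chosen for a line difference called in the dark and at both doses. The right column shows genes chosen for a changed line difference, whose order at high light is the opposite of that in the dark.

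Whether genes that differ between the unlit lines also respond to the dose of light in bPAC cells was asked with high against low light. That contrast compares no dark library, but the dark libraries share in its estimate of the spread. Of the 557 genes, 72 were called (12.9%), near the 10.2% of all tested genes. Of the 308 higher genes 24 were higher and 13 lower at the high dose, beside 5.18% and 5.03% of all tested genes. Of the 249 lower genes 17 were higher and 18 lower. The median log2 fold change between the doses was 0.16 for the higher and -0.09 for the lower genes, beside 0.00 over all tested genes. The dark line differences and the dose differences correlated across genes at r = 0.07 (rho 0.09). The count of 72 was 27 to 33 without bPAC dark replicate 2 or parental dark replicate 2 or 3, where fewer dark genes entered. No background share was taken for those fits. When the groups compared were fitted alone it was 15 of 448 (3.35%, background 3.15%).

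**Figure D5:**
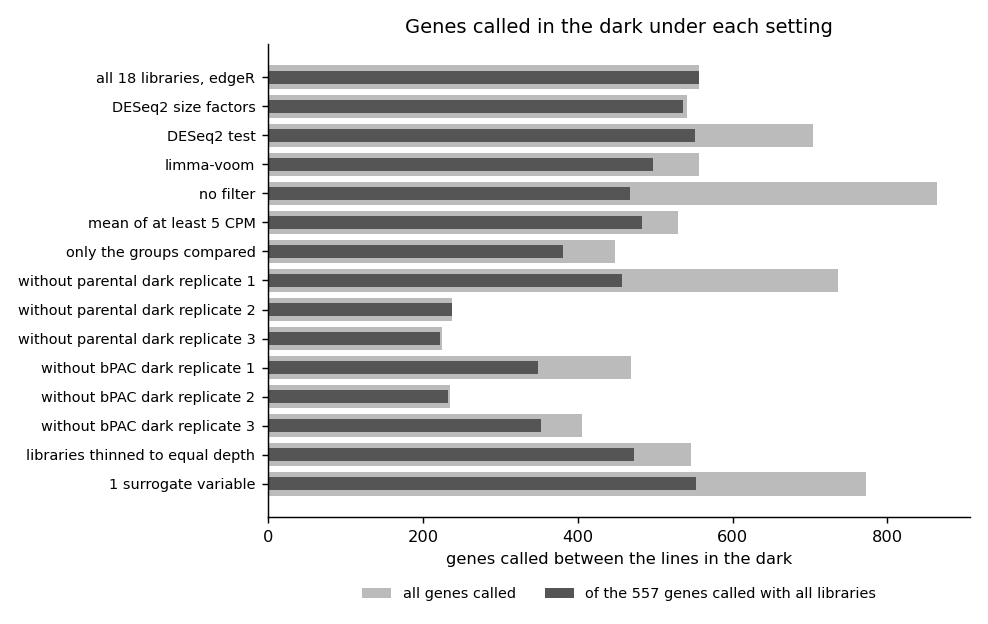
Bars give the number of genes called between the lines in the dark on the horizontal axis for each setting, and the inner bars those that belong to the 557 called with all libraries. Counts run from 224 to 864, and with parental replicate 2 or 3 or bPAC replicate 2 left out nearly all called genes are among the 557.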

How the data were processed

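Per the labels' protocols, Lexogen kits served for RNA (SPLIT) and for libraries read near the 3' end (QUANTSEQ 3' FWD), so counts do not scale with transcript length. The authors deposited whole-number read counts per gene ID, 1 table per library, not normalised. Per the submitters' processing notes reads were placed on CanFam3.1. Aligner, counting program and annotation: not given in the sources used here. Genes sharing reads with near copies or overlapping genes are uncertain.

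The 5 rows without a gene were left out. All 18 libraries entered 1 model of 6 groups, since groups hold 2 to 4 libraries. filterByExpr (minimum count 10) kept 8530 genes, TMM scaled the libraries, and edgeR 4.0.16 (glmQLFit, robust; glmQLFTest) in R 4.3.3 gave p-values, adjusted by Benjamini-Hochberg over all tested genes. Standard errors (SE) were taken as absolute log2 fold change divided by the root of F. Log2 CPM used a prior count of 2. Within lines, chi-square per degree of freedom was 8.87 to 42.3 for pairs of dark libraries, so none agreed within sampling noise. The test was checked on simulated counts (8530 genes, 200 changed).

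Named genes were the 2 per direction with the largest dark fold change that were called at both doses, at 20 CPM or more without overlap, and 1 per direction with a changed line difference. The comparison, the lists and this rule were chosen with earlier results of these data known. Alternatives were DESeq2 1.42.0 size factors and test, limma-voom (limma 3.58.1), 2 other filters, only the groups compared, each dark library left out, and, chosen after seeing the data, thinning to equal depth and 1 surrogate variable (sva 3.50.0). The 13 gene lists could not be applied without symbols.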

Additional observations from a re-analysis of the deposited data

Results flagged for a closer look

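The line difference itself changed with light for 2 of the dark genes at low light and 6 at high light, by a test of the interaction of line and light. ENSCAFG00000006638 was flagged at both doses, with changes of -2.67 and -2.96 on the log2 scale, and was called in the interaction at both doses under all 14 alternatives. ENSCAFG00000016285 was flagged at high light, with a change of 3.74, also called under all 14. Both genes were chosen for their small interaction p-values, and the alternatives reuse the libraries behind them. The repeated calls are therefore not independent of that choice. No library stood apart in the 4 bPAC low light libraries by Dixon's criterion in 8 measures tested.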

How the results depend on the processing

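No paired analysis was possible because the labels carry no replicate numbers. Those used here follow accession order, name libraries and pair none. The 557 dark genes kept their sign under all 14 alternatives wherever they were tested, with 483 of them tested at a mean of at least 5 CPM and 545 after thinning. Every alternative reuses dark libraries that chose these genes, so a kept sign was nearly fixed beforehand. Called counts were 541 with DESeq2 size factors, 704 by DESeq2's test, 556 by limma-voom, 529 at a mean of at least 5 CPM, 448 with only the groups compared, 546 after thinning and 772 with 1 surrogate variable. Without a filter 864 of 16648 tested genes were called, 515 of them higher and 609 by at least 2-fold. In that fit the line difference changed for 43 dark genes at low and 91 at high light, and 141 differed between doses in bPAC cells. Changed differences numbered 6 and 16 by DESeq2 and 4 and 10 with 1 surrogate variable. With only the groups compared 15 dark genes differed between doses. Leaving out each dark library in turn gave 224 to 736 called genes, 150 to 385 higher, 64 to 351 lower (146 without bPAC dark replicate 3) and 186 to 567 by at least 2-fold. It gave 165 to 232 genes called the same way at low light, 145 to 245 at high light, 1 to 2 and 1 to 32 changed differences, and 27 to 88 differing between doses. Apart from the fit of only the groups compared, no background share was taken for the dark genes in these alternatives. Whether their counts exceed the share of all genes tested there is therefore not known. Among the 6 genes named by rule, 82 of 84 values stayed on the same side of the threshold, the exceptions being ENSCAFG00000012619 and ENSCAFG00000016285 as given above. Except where a setting tests fewer genes or libraries, the cause was not tested.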
